A study of Mus musculus with 12 samples.

Results

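The genes described here encode the carriers and enzymes that take glucose to lactate, the pyruvate dehydrogenase enzyme and the kinases that switch it off, and the pentose phosphate pathway. They were chosen as a list of 37 symbols, and 33 of them had a probe set assigned to that gene alone among the 19938 genes measured. Gpi1, Gapdh, Eno1 and G6pdx had none and are not described. All 25 probe sets that carry Gapdh carry other genes as well.

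RNA of 5 groups of mouse cells was hybridised to 12 arrays of the Affymetrix type Mouse Gene 1.0 ST, with 3 arrays each for astrocytes and day 6 cells and 2 for each other group. Astrocytes were grown in 10% fetal bovine serum from the cortex of Sox1-GFP reporter mice (Sox1+/-) at postnatal day 3 and sorted as negative for green fluorescent protein (GFP). The day 6 cells, named an intermediate state in the labels, came from such astrocytes after retroviral Oct4, Klf4, Sox2 and c-Myc and were sorted as Sox1-GFP positive on day 6, in 15% serum with leukaemia inhibitory factor (LIF) at 1000 U/ml. Neural stem cells were taken at embryonic day 12.5 to 14.5 from the telencephalon of Sox1-GFP mice and grown without serum, with bFGF and EGF at 20 ng/ml each. Astrocyte iPSCs were induced pluripotent stem cells made from the Sox1-GFP astrocytes. MEF iPSCs, made from mouse embryonic fibroblasts, were a single line, iPS-MEF-Ng-20D-17, with a Nanog-GFP-IRES-Puro reporter. The culture notes give both iPSC groups LIF at 1500 U/ml, fibroblast feeder cells arrested with mitomycin C, and either 15% serum or 15% serum replacement, without saying which was used for which. Medium, age, feeder cells and sorting differed along with the groups, and their parts in any difference cannot be told apart. The replicates are called biological by the submitters, without a statement in the labels that they are separate animals or cultures, so the p-values reflect only the spread among these samples, which may be technical.

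Glycolysis splits glucose into pyruvate, and several of its steps can be carried out by alternative enzymes from different genes, called isoforms, whose use differs between tissues. Lactate dehydrogenase turns pyruvate into lactate, while pyruvate dehydrogenase sends it into the mitochondria and is switched off by the pyruvate dehydrogenase kinases. The pentose phosphate pathway branches off early and supplies NADPH and ribose for nucleotides. Astrocytes are known as glycolytic cells that store glycogen and release lactate, and mouse pluripotent stem cells are known for high glycolytic flux.

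Levels are log2 of the deposited probe set intensity, given for each array in replicate order, and a difference of 1 is a doubling. Since probe sets differ in how strongly they bind, a level is compared between groups and never between genes. A gene was called different where limma's moderated test, fitted across all genes, gave a Benjamini-Hochberg adjusted p under 0.05 and the log2 difference was at least 1. Unless stated otherwise, the error after a difference is its standard error in limma (SE), and the error after a mean is the standard deviation over arrays (SD).

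The labelled cell types were checked against marker lists. The mean of 7 astrocyte markers was 10.10 in astrocytes and 6.64 in day 6 cells, although S100b, a calcium-binding protein used as an astrocyte marker, was only at 6.00 ± 0.16 (SD, n = 3) in the astrocytes. The 8 neural stem cell markers went against the labels, with a mean of 10.05 in astrocytes, 9.58 in neural stem cells and 7.82 in day 6 cells. The 7 measured oligodendrocyte lineage markers averaged 8.74 in neural stem cells, 7.72 in astrocytes and 6.51 in day 6 cells. The mean of 8 pluripotency markers was 10.70 in astrocyte iPSCs, 10.48 in MEF iPSCs and 6.45 in day 6 cells. Markers of fibroblasts and feeder cells averaged 8.45 and 9.17 on the 2 astrocyte iPSC arrays, 8.17 to 8.22 in MEF iPSCs and 6.65 to 6.75 in day 6 cells. Neuron markers averaged 9.32 in neural stem cells against 7.30 in astrocytes, and red blood cell markers there ran from 6.49 to 7.26 against at most 6.14 on the day 6 arrays. Within groups, Pearson's r between arrays over all probe sets was 0.9922 to 0.9964, and between groups it was 0.8662 to 0.9905.

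The sequence before the start of transcription is shown for the 4 genes that were called between day 6 cells and astrocytes and have exactly 1 promoter entry, since Hk2 and Slc16a3 were higher and Ldhb and Pdk4 lower in day 6 cells. Each is the stretch of 250 bases before the RefSeq start on the strand of the gene (GRCm38.p6), at chr6:82774455-82774704 (minus strand) for Hk2, chr11:120948817-120949066 (plus) for Slc16a3, chr6:142507958-142508207 (minus) for Ldhb and chr6:5496279-5496528 (minus) for Pdk4. Capitals mark ACGTG on either strand, called the core here. It is a form of the hypoxia response element core and is contained in the Myc E-box CACGTG. The other form of the hypoxia core, GCGTG, was not marked, and how often it occurs over all windows was not counted.
Hk2: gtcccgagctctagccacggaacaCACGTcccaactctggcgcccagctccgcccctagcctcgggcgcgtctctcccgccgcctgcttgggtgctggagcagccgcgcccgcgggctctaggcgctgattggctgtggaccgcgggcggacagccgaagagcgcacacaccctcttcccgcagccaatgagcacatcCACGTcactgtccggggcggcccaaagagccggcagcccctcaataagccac
Slc16a3: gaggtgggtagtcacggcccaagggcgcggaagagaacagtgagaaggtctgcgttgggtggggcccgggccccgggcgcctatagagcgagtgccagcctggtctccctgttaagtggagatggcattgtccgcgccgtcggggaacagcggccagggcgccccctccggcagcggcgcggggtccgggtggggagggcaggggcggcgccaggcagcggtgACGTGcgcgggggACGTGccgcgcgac
Ldhb: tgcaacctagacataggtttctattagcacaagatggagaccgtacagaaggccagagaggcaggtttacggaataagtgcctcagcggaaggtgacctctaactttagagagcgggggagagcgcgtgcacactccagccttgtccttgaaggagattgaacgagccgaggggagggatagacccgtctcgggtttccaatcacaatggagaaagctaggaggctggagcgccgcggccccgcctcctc
Pdk4: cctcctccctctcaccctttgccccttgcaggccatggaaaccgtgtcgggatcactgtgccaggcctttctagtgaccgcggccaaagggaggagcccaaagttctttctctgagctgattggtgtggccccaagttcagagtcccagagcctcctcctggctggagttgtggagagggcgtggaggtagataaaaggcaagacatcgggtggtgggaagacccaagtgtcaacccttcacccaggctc
Hk2 holds the core at 2 places, at positions -226 and -52 counted from the start of transcription, and Slc16a3 at 2 places, at -27 and -14. Ldhb and Pdk4 hold no ACGTG in this window, but the unmarked GCGTG occurs in both. The other called genes with an entry did not divide this way: Pfkm, Pfkfb3 and Pdk2, lower in day 6 cells, hold the core in at least 1 window each, and Pgd, higher, and Aldoc, lower, hold none. The GC content was 69.6% for Hk2, 73.6% for Slc16a3, 56.4% for Ldhb and 58.8% for Pdk4, against a median of 52.4% over all windows of this length. The core was present in 16.6% of all 32851 windows and in 37.8% of the 45 windows of the listed genes, of which 32 had an entry. CACGTG was present in 6.02% of all windows and 11.1% of those of the listed genes. A match describes letters only and says nothing of binding.

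**Figure D1:**
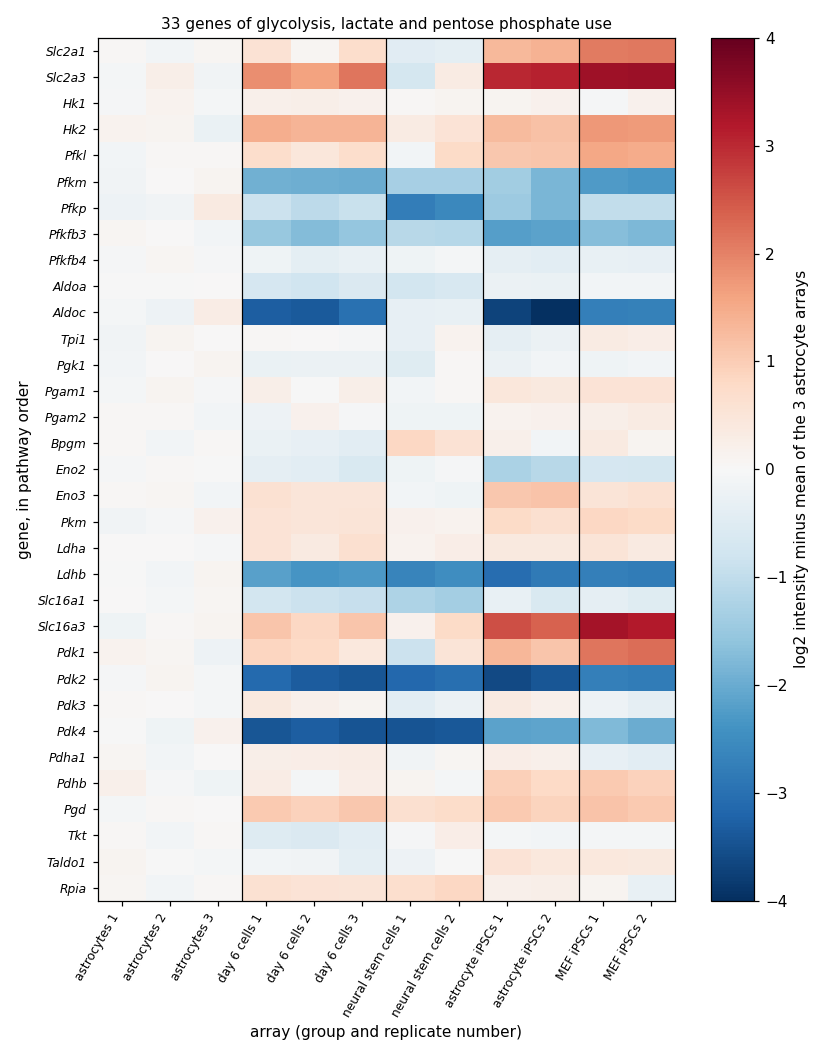
Levels of the 33 measured genes by array. Each row is a gene in pathway order, each column is 1 of the 12 arrays grouped by cell type, and colour is log2 intensity minus the mean of the 3 astrocyte arrays (red higher, blue lower). Aldoc, Ldhb, Pdk2 and Pdk4 are blue in the 3 day 6 arrays, and Slc2a3 and Slc16a3 are red in the 4 iPSC arrays.

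Against the astrocytes they were made from, the day 6 cells had 10 of the 33 genes called, or 30.3%, while 16.9% of all genes tested were called. Higher were Slc2a3, Hk2, Slc16a3 and Pgd, 4 genes where 6.75% of all genes were called higher. Lower were Pfkm, Pfkfb3, Aldoc, Ldhb, Pdk2 and Pdk4, 6 genes where 10.1% of all genes were called lower. The shares over all genes include many dim genes. Leaving out genes above the array median on fewer than 2 arrays kept 31 of the 33 genes and 11905 of all genes. Called higher and lower were then 4 and 6 of the 31. Of the 11905, 1332 were called higher and 1952 lower, beside 1346 and 2014 of all 19938 genes. Nearly all calls thus lay among these brighter genes, whose share called was closer to that of the list. The median log2 difference of the 33 genes was 0.005, beside 0.042 over all genes, with genes on both sides of it. Fewer cells of a type and less RNA per cell cannot be told apart in these bulk samples.

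Glucose enters cells through facilitative carriers, of which Slc2a3, also called GLUT3, is the high-affinity form of neurons and early embryos. Slc2a3 stood at 8.56, 8.88 and 8.53 in astrocytes, 10.53, 10.27 and 10.79 in day 6 cells, 7.95 and 8.98 in neural stem cells, 11.67 and 11.72 in astrocyte iPSCs and 12.04 and 12.09 in MEF iPSCs. All 3 day 6 arrays lay above every astrocyte and neural stem cell array and below every iPSC array. The difference between day 6 cells and astrocytes was 1.87 ± 0.22 (limma adjusted p = 1.67e-05), or 3.67-fold. Slc2a3 was also called higher in day 6 cells than in neural stem cells (2.06 ± 0.24) and higher in astrocyte iPSCs than in day 6 cells (1.16 ± 0.24, limma adjusted p = 0.00355), so that it was called in 4 of the 6 comparisons. The neighbours in this order that did not differ by a call were neural stem cells and astrocytes at the bottom and the 2 iPSC groups at the top.

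Slc2a1, or GLUT1, the carrier of most tissues and of the blood-brain barrier, varied less. It stood at 10.17, 10.02 and 10.21 in astrocytes, 10.71, 10.23 and 10.83 in day 6 cells, 9.69 and 9.76 in neural stem cells, 11.44 and 11.52 in astrocyte iPSCs and 12.20 and 12.25 in MEF iPSCs. Day 6 cells differed from astrocytes by only 0.46 ± 0.13, under the fold limit, and replicate 2 of the day 6 cells lay close to the astrocytes. Astrocyte iPSCs were called higher than astrocytes by 1.35 ± 0.14 (limma adjusted p = 7.28e-06).

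Hexokinases trap glucose by phosphorylating it. Hk2, the inducible form of muscle and tumour cells, stood at 8.66, 8.61 and 8.25 in astrocytes, 9.95, 9.86 and 9.86 in day 6 cells, 8.83 and 9.06 in neural stem cells, 9.76 and 9.68 in astrocyte iPSCs and 10.25 and 10.21 in MEF iPSCs. Day 6 cells exceeded astrocytes by 1.38 ± 0.10 (limma adjusted p = 3.5e-07), or 2.60-fold, and its promoter window is printed above. Astrocyte iPSCs, at 1.22 ± 0.11 over astrocytes, were close to the day 6 cells, and no array of these 2 groups reached the level of MEF iPSCs.

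Hk1, the mitochondria-bound hexokinase of brain, gave opposite answers with its 2 probe sets. The brighter, used throughout, stood at 12.15, 12.33 and 12.12 in astrocytes, 12.40, 12.42 and 12.37 in day 6 cells, 12.23 and 12.32 in neural stem cells, 12.30 and 12.38 in astrocyte iPSCs and 12.16 and 12.35 in MEF iPSCs, so it hardly varied. It is annotated with a single older cDNA record, while the dimmer probe set is the one annotated with RefSeq transcripts of Hk1. The dimmer stood at 9.57, 9.72 and 9.57 in astrocytes, 8.50, 8.34 and 8.46 in day 6 cells, 8.82 and 9.06 in neural stem cells, 8.51 and 8.30 in astrocyte iPSCs and 8.35 and 8.18 in MEF iPSCs. Here every other group lay below every astrocyte array, and day 6 cells differed from astrocytes by -1.19 ± 0.09 (limma adjusted p = 4.42e-07 with each probe set fitted by itself), against 0.20 ± 0.07 for the brighter. With the RefSeq-annotated probe set, chosen after its values were seen, 11 of the 33 genes were called between day 6 cells and astrocytes, and no direction is given for Hk1.

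**Figure D2:**
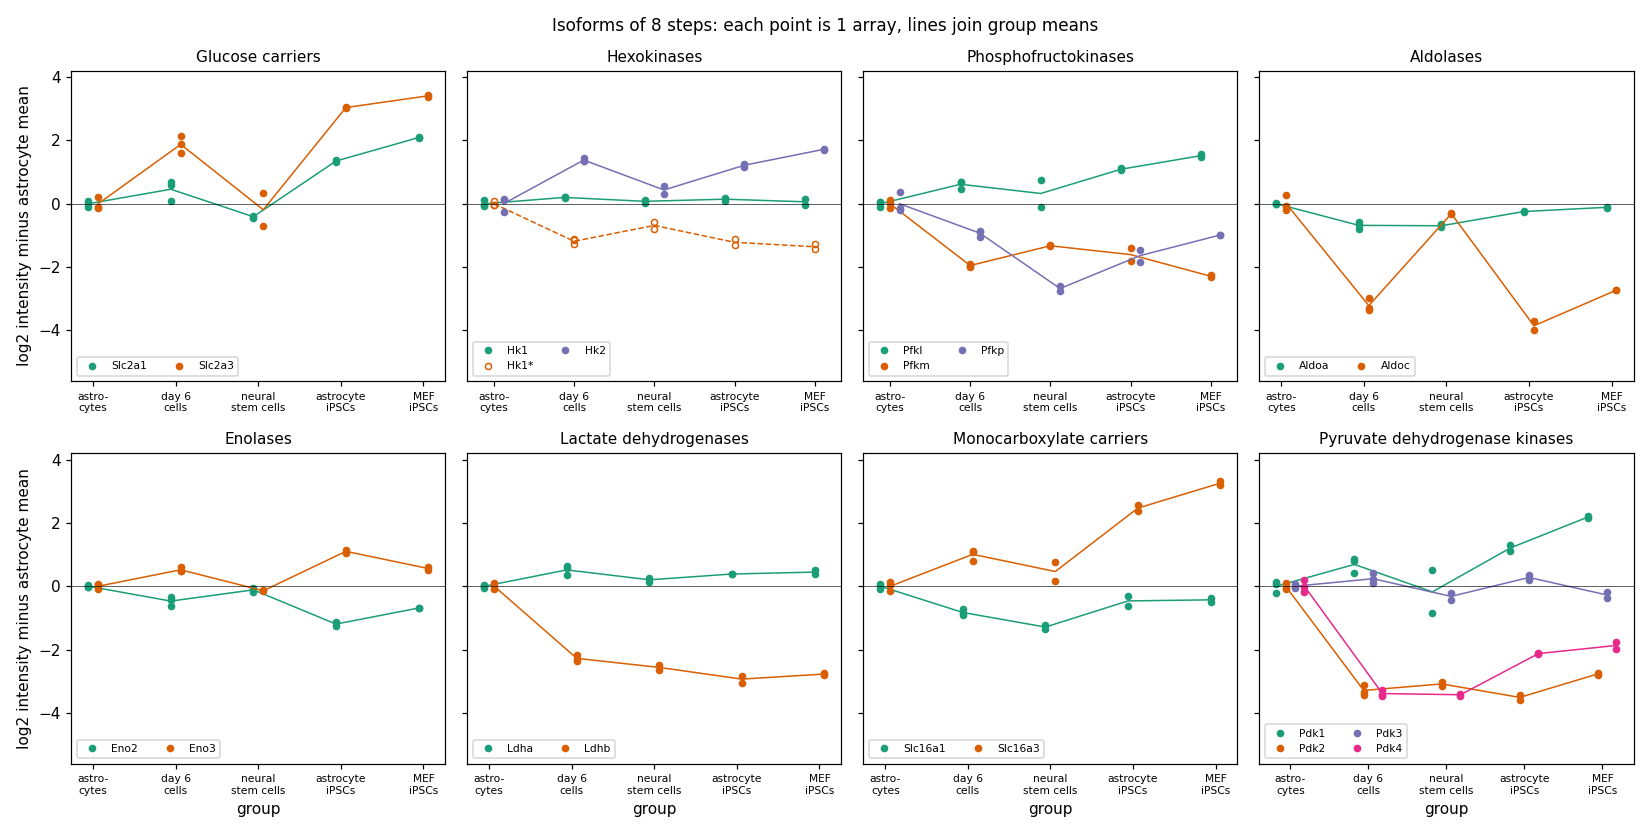
Isoforms of 8 steps across the groups. Points are single arrays and lines join group means of log2 intensity minus the gene's own astrocyte mean, so levels of different genes are not compared. Hk1* (open points, dashed line) is the second Hk1 probe set, annotated with RefSeq transcripts. In the aldolase, lactate dehydrogenase and pyruvate dehydrogenase kinase panels, Aldoc, Ldhb, Pdk2 and Pdk4 in day 6 cells lie more than 2 below the astrocyte mean.

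Phosphofructokinase commits sugar to glycolysis, and its 3 subunits are named after liver (Pfkl), muscle (Pfkm) and platelets (Pfkp). Pfkm stood at 10.26, 10.41 and 10.51 in astrocytes, 8.49, 8.44 and 8.40 in day 6 cells, 9.08 and 9.06 in neural stem cells, 8.998 and 8.58 in astrocyte iPSCs and 8.15 and 8.07 in MEF iPSCs. Every array of the 4 other groups lay more than 1 below every astrocyte array. Day 6 cells were lower than astrocytes by 3.87-fold (-1.95 ± 0.10, limma adjusted p = 1.73e-08). Muscle markers, listed because several of these isoforms are named after muscle, averaged between 6.19 and 6.64 on every array, and 0 of 8 were called by limma in any of the 6 comparisons. At an unadjusted p under 0.05, 3 were higher and 1 lower in day 6 cells than in astrocytes, 7 were higher in day 6 cells than in neural stem cells, 4 were higher in astrocyte iPSCs than in day 6 cells and 4 than in astrocytes, 1 was lower in neural stem cells than in astrocytes, and 2 were higher and 1 lower in astrocyte iPSCs than in MEF iPSCs.

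Pfkl moved the other way, at 8.40, 8.54 and 8.54 in astrocytes, 9.19, 8.95 and 9.18 in day 6 cells, 8.38 and 9.25 in neural stem cells, 9.55 and 9.61 in astrocyte iPSCs and 10.05 and 9.97 in MEF iPSCs. Its difference between day 6 cells and astrocytes was under the fold limit (0.62 ± 0.17), and that between astrocyte iPSCs and astrocytes was called (1.09 ± 0.19, limma adjusted p = 0.000409). That call ended at a difference of 0.97 when arrays were normalized by cyclic loess. The 2 neural stem cell arrays were 0.87 apart for this gene.

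Pfkp was lowest in neural stem cells. It stood at 10.30, 10.36 and 10.87 in astrocytes, 9.65, 9.46 and 9.62 in day 6 cells, 7.75 and 7.92 in neural stem cells, 9.06 and 8.68 in astrocyte iPSCs and 9.52 and 9.53 in MEF iPSCs. Neural stem cells were 6.40-fold lower than astrocytes (-2.68 ± 0.16, limma adjusted p = 1.14e-07), and day 6 cells were 3.36-fold higher than neural stem cells (1.75 ± 0.16, limma adjusted p = 5.82e-06). The difference between day 6 cells and astrocytes, -0.93 ± 0.14, was just under the fold limit and passed it without astrocytes replicate 1 (-1.03), without astrocytes replicate 2 (-1.004) and with cyclic loess (-1.08).

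Pfkfb3 and Pfkfb4 make and break the sugar bisphosphate that activates phosphofructokinase. Pfkfb3 stood at 9.17, 9.10 and 8.99 in astrocytes, 7.57, 7.35 and 7.55 in day 6 cells, 7.99 and 7.94 in neural stem cells, 6.90 and 6.96 in astrocyte iPSCs and 7.38 and 7.30 in MEF iPSCs. The astrocytes were the highest group by a wide margin, and day 6 cells differed from them by -1.60 ± 0.07 (limma adjusted p = 8.69e-09). Pfkfb4 lay between 6.47 and 6.98 on all 12 arrays, about the array median of 6.61 to 6.71, and was called in no comparison.

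Aldolase splits the product of phosphofructokinase, a different sugar bisphosphate, into triose phosphates. Aldoc, the brain isoform known from astrocytes and Purkinje cells, stood at 11.45, 11.32 and 11.81 in astrocytes, 8.23, 8.16 and 8.54 in day 6 cells, 11.20 and 11.23 in neural stem cells, 7.82 and 7.53 in astrocyte iPSCs and 8.79 and 8.81 in MEF iPSCs. The neural groups were high and the day 6 and iPSC groups low, with no overlap between these 2 sets of arrays. Day 6 cells were 9.30-fold lower than astrocytes (-3.22 ± 0.13, limma adjusted p = 3.66e-09) and 7.49-fold lower than neural stem cells (-2.90 ± 0.15, limma adjusted p = 5.61e-08). The difference between neural stem cells and astrocytes was not called. Aldoa, the isoform of muscle and most other tissues, stood at 12.38, 12.39 and 12.42 in astrocytes, 11.74, 11.59 and 11.82 in day 6 cells, 11.66 and 11.74 in neural stem cells, 12.16 and 12.14 in astrocyte iPSCs and 12.29 and 12.27 in MEF iPSCs. It was lower in day 6 cells by less than the fold limit (-0.68 ± 0.07), and by -1.02 with cyclic loess.

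Of the steps that follow, triose phosphate isomerase (Tpi1) and phosphoglycerate kinase (Pgk1) differed little. Tpi1 ranged from 10.19 to 10.88 and Pgk1 from 11.23 to 11.82 over the 12 arrays, and neither was called in any comparison. Pgk1 and the phosphoglycerate mutase Pgam1 each have 3 probe sets with similar values and differences, so signal from near-identical gene copies cannot be told apart and the values are uncertain. Pgam1 stood at 11.24, 11.42 and 11.27 in astrocytes, 11.54, 11.28 and 11.54 in day 6 cells, 11.20 and 11.35 in neural stem cells, 11.78 and 11.71 in astrocyte iPSCs and 11.86 and 11.85 in MEF iPSCs. The iPSC arrays were the highest 4, by less than the fold limit. Pgam2, the muscle mutase, lay between 5.85 and 6.37 on all arrays, under the median of each array.

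Bpgm makes bisphosphoglycerate, the regulator of haemoglobin in red blood cells. It stood at 7.80, 7.65 and 7.78 in astrocytes, 7.47, 7.41 and 7.33 in day 6 cells, 8.58 and 8.31 in neural stem cells, 7.96 and 7.65 in astrocyte iPSCs and 8.12 and 7.86 in MEF iPSCs. Neural stem cells were highest, and day 6 cells were lower than them by -1.04 ± 0.12 (limma adjusted p = 2.9e-05), a call that ended at -0.90 without neural stem cells replicate 1. Red blood cell markers averaged 6.49 on one neural stem cell array and 7.26 on the other, and the embryonic globin gene Hbb-y was at 9.40 ± 1.80 (SD, n = 2) in neural stem cells. Only 5 of the 8 listed markers were measured, and most of them hardly moved. By limma 1 of the 5 was lower in day 6 cells than in neural stem cells (median 0.064). In neural stem cells 1 was higher than in astrocytes (median 0.092). The part of red blood cells in the Bpgm level was not tested.

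Enolase makes phosphoenolpyruvate, with Eno2 as the neuronal and Eno3 as the muscle isoform. Eno2 stood at 7.80, 7.88 and 7.82 in astrocytes, 7.48, 7.40 and 7.21 in day 6 cells, 7.65 and 7.79 in neural stem cells, 6.56 and 6.72 in astrocyte iPSCs and 7.15 and 7.13 in MEF iPSCs. Eno3 stood at 6.67, 6.70 and 6.53 in astrocytes, 7.23, 7.10 and 7.12 in day 6 cells, 6.51 and 6.47 in neural stem cells, 7.70 and 7.77 in astrocyte iPSCs and 7.14 and 7.24 in MEF iPSCs. For both isoforms the day 6 cells lay between the astrocytes and the astrocyte iPSCs, Eno2 being higher and Eno3 lower in the astrocytes than in the iPSCs. Astrocyte iPSCs differed from astrocytes by -1.19 ± 0.09 for Eno2 and 1.10 ± 0.07 for Eno3 (limma adjusted p = 3.22e-07 and 1.49e-07), while the day 6 differences of -0.47 ± 0.08 and 0.52 ± 0.07 were under the fold limit. Eno1, the main enolase of most cells, is among the genes without a probe set of their own.

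Pyruvate kinase (Pkm) finishes glycolysis, and its M1 and M2 splice forms were not told apart here. It ranged from 10.80 to 11.11 in astrocytes and from 11.44 to 11.49 in day 6 cells, a difference of 0.52 ± 0.08 that was under the fold limit.

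Lactate dehydrogenase is built from A subunits, encoded by Ldha and typical of tissues that make lactate, and B subunits, encoded by Ldhb and typical of tissues that use it. Ldhb stood at 11.13, 11.04 and 11.23 in astrocytes, 8.96, 8.78 and 8.83 in day 6 cells, 8.50 and 8.64 in neural stem cells, 8.09 and 8.31 in astrocyte iPSCs and 8.40 and 8.33 in MEF iPSCs. The 3 astrocyte arrays stood apart from all 9 others by more than 2. Day 6 cells were 4.85-fold lower than astrocytes (-2.28 ± 0.08, limma adjusted p = 1.26e-09), and the second Ldhb probe set gave -2.17 ± 0.08. Ldha stood at 11.96, 11.95 and 11.89 in astrocytes, 12.50, 12.28 and 12.58 in day 6 cells, 12.07 and 12.21 in neural stem cells, 12.32 and 12.33 in astrocyte iPSCs and 12.46 and 12.31 in MEF iPSCs. Its difference of 0.52 ± 0.08 between day 6 cells and astrocytes was under the fold limit, and that between astrocyte iPSCs and astrocytes, 0.39 ± 0.09, became -0.01 with cyclic loess.

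Monocarboxylate carriers move lactate across the membrane. Slc16a3, or MCT4, the low-affinity carrier of lactate-exporting cells, stood at 6.54, 6.74 and 6.82 in astrocytes, 7.81, 7.51 and 7.80 in day 6 cells, 6.86 and 7.47 in neural stem cells, 9.26 and 9.07 in astrocyte iPSCs and 10.03 and 9.89 in MEF iPSCs. Its level in day 6 cells lay above all astrocyte arrays and below all iPSC arrays. The difference from astrocytes was 1.01 ± 0.15 (limma adjusted p = 0.000107), a call at the fold limit that ended without astrocytes replicate 1 (0.93), day 6 cells replicate 1 (0.95) or replicate 3 (0.96). Astrocyte iPSCs were higher than day 6 cells by 1.46 ± 0.16 (limma adjusted p = 4.11e-05) and higher than astrocytes by 2.47 ± 0.16. Slc16a1, or MCT1, the carrier of most tissues, stood at 10.39, 10.30 and 10.46 in astrocytes, 9.66, 9.53 and 9.47 in day 6 cells, 9.15 and 9.04 in neural stem cells, 10.08 and 9.76 in astrocyte iPSCs and 10.01 and 9.90 in MEF iPSCs. Every other group lay below the astrocytes, by a called difference in neural stem cells (-1.29 ± 0.10, limma adjusted p = 8.85e-07) and by -0.83 ± 0.09 in day 6 cells, which reached -1.02 with cyclic loess.

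The 4 pyruvate dehydrogenase kinases inhibit the entry of pyruvate into the mitochondria, Pdk1 as a known target of hypoxia-inducible factor and Pdk4 as the form induced by fasting. Pdk2, the widespread form, stood at 10.40, 10.55 and 10.35 in astrocytes, 7.31, 7.10 and 7.01 in day 6 cells, 7.29 and 7.40 in neural stem cells, 6.83 and 7.01 in astrocyte iPSCs and 7.70 and 7.62 in MEF iPSCs. Pdk4 stood at 8.92, 8.75 and 9.11 in astrocytes, 5.50, 5.64 and 5.47 in day 6 cells, 5.47 and 5.53 in neural stem cells, 6.77 and 6.83 in astrocyte iPSCs and 7.18 and 6.94 in MEF iPSCs. For both kinases the astrocyte arrays were more than 1.5 above all others, and for Pdk4 the day 6 and neural stem cell arrays lay under the array median. Day 6 cells were 9.79-fold lower than astrocytes in Pdk2 (-3.29 ± 0.09, limma adjusted p = 1.41e-10) and 10.5-fold lower in Pdk4 (-3.39 ± 0.10, limma adjusted p = 2.01e-10). Pdk4 was called higher in astrocyte iPSCs than in day 6 cells (1.26 ± 0.11, limma adjusted p = 4.75e-06), while remaining 4.37-fold under astrocytes. Since the day 6 level of Pdk4 was so dim, its fold is uncertain, and the difference from astrocytes was -3.95 when 16 was subtracted from all intensities before log2.

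Pdk1 stood at 8.18, 8.12 and 7.84 in astrocytes, 8.91, 8.83 and 8.47 in day 6 cells, 7.19 and 8.55 in neural stem cells, 9.36 and 9.15 in astrocyte iPSCs and 10.20 and 10.28 in MEF iPSCs. The iPSCs were highest, and the neural stem cell arrays lay 1.36 apart, which enters the error of every Pdk1 difference. Astrocyte iPSCs were called higher than astrocytes (1.21 ± 0.30, limma adjusted p = 0.00467). Pdk3 stood at 8.68, 8.62 and 8.55 in astrocytes, 9.02, 8.83 and 8.71 in day 6 cells, 8.20 and 8.40 in neural stem cells, 8.96 and 8.83 in astrocyte iPSCs and 8.42 and 8.26 in MEF iPSCs, and was called in no comparison. Their target subunits Pdha1 and Pdhb were called in no comparison either, with levels of 10.26 to 10.97 and 9.52 to 10.73 over the 12 arrays.

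In the pentose phosphate pathway, Pgd, the second NADPH-producing dehydrogenase, stood at 9.31, 9.43 and 9.39 in astrocytes, 10.42, 10.31 and 10.46 in day 6 cells, 10.03 and 10.12 in neural stem cells, 10.42 and 10.26 in astrocyte iPSCs and 10.52 and 10.44 in MEF iPSCs. All 9 other arrays lay above the astrocytes. Day 6 cells were higher by 1.02 ± 0.07 (limma adjusted p = 1.44e-07), or 2.03-fold, and this call at the fold limit ended when astrocytes replicate 1 (0.99) or day 6 cells replicate 3 (0.99) was left out and under cyclic loess (0.81). Transketolase (Tkt) and ribose phosphate isomerase (Rpia), of the branch that makes ribose, differed from astrocytes by -0.51 ± 0.09 and 0.56 ± 0.10 in day 6 cells, and transaldolase (Taldo1) ranged from 8.37 to 9.33 over the arrays. None of these 3 genes was called in any comparison. G6pdx, which opens the pathway, is not described for want of a probe set of its own.

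Proliferation markers moved with this comparison. All 7 measured were called higher in day 6 cells than in astrocytes, with a median of 1.47 and list means of 10.75 to 10.78 against 8.79 to 9.31 on the arrays, and the part of cell division in the differences of glycolysis genes was not tested. Called lower in day 6 cells were 5 of 7 astrocyte markers (median -4.04) and 5 of 8 neural stem cell markers (median -2.27), with 0 higher in either list. The part of these 2 lists was not tested. Of the 8 fibroblast and feeder markers, 3 were lower in day 6 cells and 0 higher by limma, the latter also at an unadjusted p under 0.05. Of the 8 microglia markers 0 were called by limma, and 6 were lower at an unadjusted p under 0.05.

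Without the fold limit, 25 of the 33 genes had an adjusted p under 0.05 between day 6 cells and astrocytes, 12 higher and 13 lower, where 48.9% of all genes did. The arrays of the 2 groups did not overlap for 29 of the 33 genes, beside 55.9% of all genes. With cyclic loess the calls were 2 higher and 9 lower in place of 4 and 6, since Slc16a3 and Pgd dropped out and Pfkp, Aldoa and Slc16a1 came in.

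**Figure D3:**
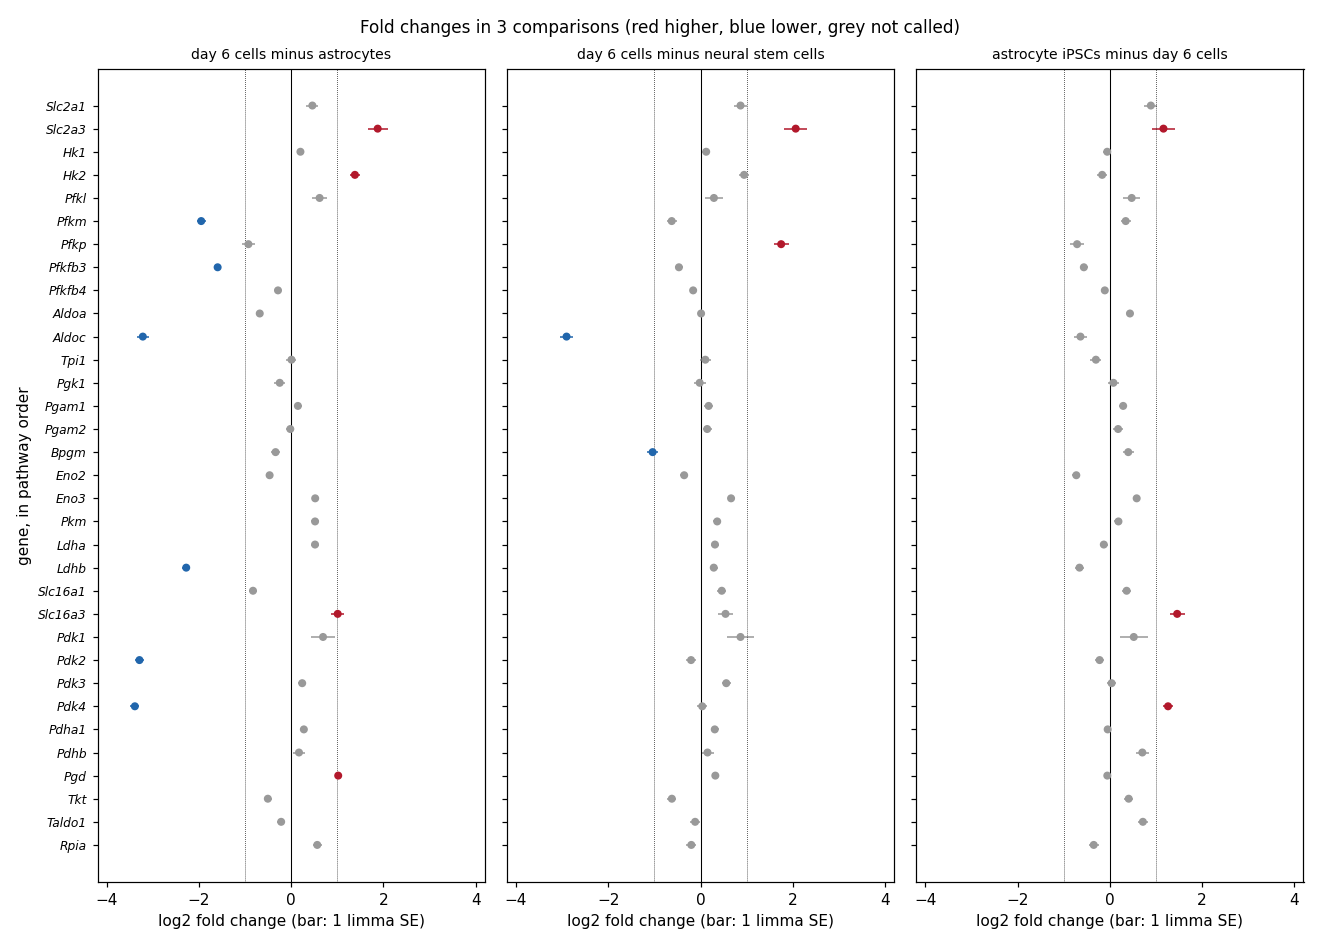
Differences of the 33 genes in the 3 comparisons that involve day 6 cells. The horizontal axis is the log2 difference of group means with 1 limma SE as a bar, each row is a gene, called genes are red (higher) or blue (lower), and dotted lines mark the fold limit of 1. Pdk4, Pdk2, Aldoc and Ldhb lie farthest to the left for day 6 cells minus astrocytes, and Slc2a3 is red in all 3 panels.

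Neural stem cells are the normal cells that express Sox1, and day 6 cells were set beside them. Here 4 of the 33 genes were called, or 12.1%, beside 8.88% of all genes. Slc2a3 and Pfkp were higher (2.94% of all genes were called higher), and Aldoc and Bpgm were lower (5.94% lower), with the values given above. With dim genes left out, 2 of the 31 remaining listed genes were called higher and 2 lower, beside 575 and 1134 of 11905 genes. Over both directions together, the share of the list called was then not above that of these brighter genes. Without the fold limit 20 had an adjusted p under 0.05, beside 38.4% of all genes. Among genes under the fold limit, Hk2 differed by 0.95 ± 0.11, Slc2a1 by 0.87 ± 0.14, Pdk1 by 0.87 ± 0.30 and Eno3 by 0.66 ± 0.07, all higher in day 6 cells, while Pfkm and Tkt were each 0.62 lower. Without neural stem cells replicate 2, Hk2 (1.06) and Pdk1 (1.55) passed and 6 genes were called, and without replicate 1 there were 3. Neuron markers moved with this comparison, 6 of 8 being lower in day 6 cells and 1 higher, with list means of 7.06 to 7.14 against 8.99 and 9.65 per array. Also lower in day 6 cells were 4 of 7 oligodendrocyte lineage markers (median -1.22, list means of 6.43 to 6.57 against 8.66 and 8.82) and 5 of 8 neural stem cell markers (median -1.79, 7.76 to 7.85 against 9.57 and 9.598). Of the 7 astrocyte markers, 3 were lower and 1 higher in day 6 cells (median -0.16). Of the 8 pluripotency markers, 2 were higher and 0 lower (median 0.345). The part of these lists in this comparison was not tested.

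Neural stem cells, compared with astrocytes, had 7 of the 33 genes called, or 21.2%, beside 14.6% of all genes. All 7 were lower, where 8.1% of all genes were called lower, and 0 were higher, where 6.49% were. These were Pdk4 (-3.43 ± 0.11), Pdk2 (-3.09 ± 0.10), Pfkp (-2.68 ± 0.16), Ldhb (-2.56 ± 0.09), Pfkm (-1.33 ± 0.11), Slc16a1 (-1.29 ± 0.10) and Pfkfb3 (-1.13 ± 0.08). With dim genes left out, 0 of the 31 remaining listed genes were called higher and 7 lower, beside 1247 and 1546 of 11905 genes. The share of the list called in either direction was then not above that of these brighter genes, though all its calls were lower. By limma without the fold limit 15 of the 33 had an adjusted p under 0.05, beside 45.9% of all genes, and 5 of these were higher (6 at an unadjusted p), among them Pgd and Bpgm at 0.70 each and Rpia at 0.76. Several marker lists moved with this comparison: all 7 proliferation markers were higher in neural stem cells (median 1.60, list means of 10.73 on both arrays against 8.79 to 9.31), as were 6 of 8 neuron markers with 1 lower (8.99 and 9.65 against 7.28 to 7.32) and 3 of 7 oligodendrocyte lineage markers (8.66 and 8.82 against 7.67 to 7.81). Lower in neural stem cells were 5 of 7 astrocyte markers (median -1.61) and 3 of 8 fibroblast and feeder markers, with 1 higher (median -0.79). Of 8 microglia markers 0 were called by limma, and 6 were lower at an unadjusted p under 0.05. The part of these lists in the 7 called genes was not tested. This comparison shares the astrocyte arrays with that of day 6 cells, so the values stand side by side only. Of the astrocyte's isoforms, Aldoc was at 11.20 and 11.23 in neural stem cells, near the astrocyte arrays, while Ldhb, Pdk2 and Pdk4 were near the day 6 arrays.

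The listed genes differed between the 2 arrays of neural stem cells. Replicate 2 was higher for 26 of 33 genes, or 78.8%, against 55.4% of all genes. It exceeded replicate 1 by over 0.5 for Pdk1 (1.36), Slc2a3 (1.03), Pfkl (0.87), Slc16a3 (0.61) and Pgk1 (0.53), or 15.2% of the list, beside 2.63% of all genes, and was lower by that much for 0 genes of the list and 1.67% of all genes. Of 13 other hypoxia-inducible genes, 12 were higher in replicate 2, led by Bnip3, a mitophagy receptor, at 1.69 and Ndrg1, a stress-response gene, at 1.18. The list's mean was 7.92 on replicate 1 and 8.36 on replicate 2. The marker lists differed between these arrays too. Neuron markers averaged 8.99 on one array and 9.65 on the other, and red blood cell markers 6.49 on one and 7.26 on the other. The part of these cells was not tested. The oxygen and culture density of the samples are not given in the labels, and with 1 array on each side the differences between the arrays have no test.

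**Figure D4:**
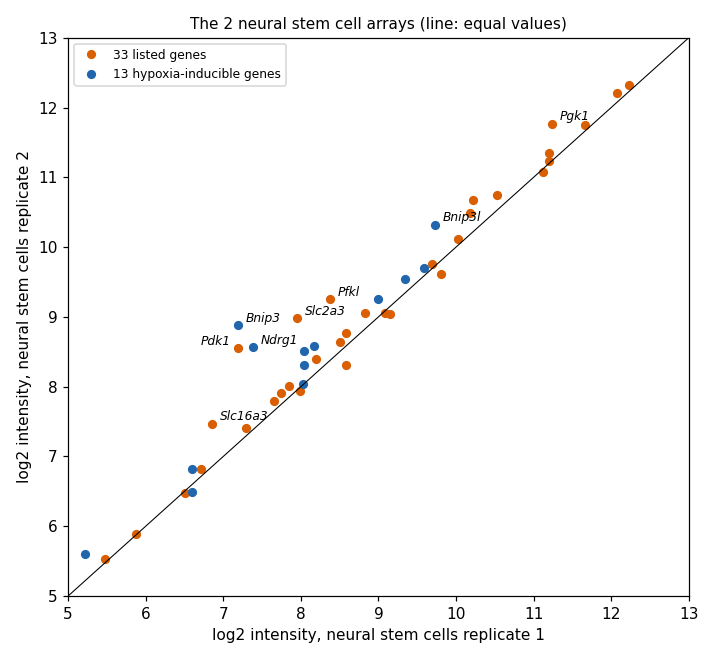
The 2 neural stem cell arrays against each other. Axes are log2 intensity on replicate 1 and replicate 2, points are the listed genes and the hypoxia-inducible genes, and the line marks equal values. Pdk1, Slc2a3, Bnip3 and Ndrg1 lie more than 1 above the line, and none of the listed genes lies more than 0.5 below it.

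Astrocyte iPSCs, compared with day 6 cells, had 3 of the 33 genes called, or 9.09%, beside 6.11% of all genes. Slc16a3, Pdk4 and Slc2a3 were higher (3.29% of all genes were called higher) and 0 were lower by limma (2.82% of all genes), where 8 were lower at an unadjusted p under 0.05. With dim genes left out, 3 of the 31 remaining listed genes were called higher and 0 lower, beside 608 and 552 of 11905 genes. Taking both directions, the share of the list called was then not above that of these brighter genes. Without the fold limit 19 of the 33 had an adjusted p under 0.05, beside 29.6% of all genes, and 6 of these were lower. The largest of those were Eno2 (-0.73 ± 0.09), Pfkp (-0.71 ± 0.16), Ldhb (-0.66 ± 0.09) and Aldoc (-0.64 ± 0.15). On the higher side and under the fold limit were Slc2a1 (0.89 ± 0.14), Taldo1 (0.72 ± 0.10), Pdhb (0.71 ± 0.14) and Eno3 (0.58 ± 0.07). Feeder markers moved with this comparison: 7 of the 8 were called higher in astrocyte iPSCs, among them the matrix proteoglycans Dcn (4.46 ± 0.43) and Lum (3.22 ± 0.26). The part of feeder cell RNA in the 3 called genes was not tested.

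Between astrocyte iPSCs and astrocytes 15 of the 33 genes were called, or 45.5%, beside 20.8% of all genes. Higher were 7 (9.44% of all genes), namely Slc2a3 (3.04 ± 0.24), Slc16a3, Slc2a1, Hk2, Pdk1, Eno3 and Pfkl. Lower were 8 (11.4% of all genes), namely Aldoc (-3.85 ± 0.15), Pdk2 (-3.51 ± 0.10), Ldhb (-2.93 ± 0.09), Pfkfb3 (-2.16 ± 0.08), Pdk4, Pfkp (-1.64 ± 0.16), Pfkm (-1.61 ± 0.11) and Eno2. With dim genes left out, 7 of the 31 remaining listed genes were called higher and 8 lower, beside 1821 and 2206 of 11905 genes. Without the fold limit 26 of the 33 had an adjusted p under 0.05, beside 51% of all genes. Feeder markers moved with this comparison too, with 4 of 8 higher and 1 lower and list means of 8.45 and 9.17 against 7.50 to 8.11 per array. Proliferation markers were higher in 6 of 7 (median 1.503, list means of 10.68 to 10.77 against 8.79 to 9.31). Called lower were 5 of 7 astrocyte markers (median -3.71) and 6 of 8 neural stem cell markers (median -2.58), with 0 higher in either list. The part of these lists was not tested.

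Few genes were called between the 2 iPSC groups. Of the 33 genes 1 was called, or 3.03%, beside 0.742% of all genes, and this was Aldoc, lower in astrocyte iPSCs by -1.13 ± 0.16 (limma adjusted p = 0.00231), where 0.281% of all genes were called lower. Without astrocyte iPSCs replicate 2 the Aldoc difference was -0.98 and 0 genes of the list were called by limma. With dim genes left out, 0 of the 31 remaining listed genes were called higher and 1 lower, beside 81 and 52 of 11905 genes. Without the fold limit, 12 of the 33 genes, or 36.4%, had an adjusted p under 0.05, beside 5.77% of all genes. Lower in astrocyte iPSCs were 8, among them Slc16a3 (-0.79 ± 0.18), Slc2a1 (-0.74 ± 0.16), Pdk2 (-0.74 ± 0.11), Tpi1 (-0.59 ± 0.13) and Hk2 (-0.51 ± 0.13), and higher were 4, Pfkm (0.68 ± 0.12), Pdha1 (0.60 ± 0.09), Pdk3 (0.55 ± 0.11) and Eno3 (0.54 ± 0.08). Pdk1, at 9.36 and 9.15 against 10.20 and 10.28, differed by -0.98 ± 0.33 and was not called (limma adjusted p = 0.129). The MEF iPSCs are 1 line, so donor cell, line and reporter cannot be told apart, and feeder markers were 8.45 and 9.17 in astrocyte iPSCs against 8.17 and 8.22.

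Other genes of glucose metabolism were counted from lists by function, of which 83 of 89 had a probe set of their own. Between day 6 cells and astrocytes, 4 of the 83 were called higher and 19 lower, where 6.75% of all genes were called higher and 10.1% lower. All 10 measured further glycolytic isoforms, such as Hk3, Pklr and Ldhc, and the 4 measured further monocarboxylate carriers and their chaperones were uncalled by limma, where at an unadjusted p under 0.05 the isoforms had 2 higher and 2 lower and the carriers 0 higher and 1 lower. Of the lower genes, 4 of 10 glycogen genes were called, Ugp2, which makes UDP-glucose (-3.26 ± 0.13), Pygb, the brain glycogen phosphorylase (-2.43 ± 0.07), and Gyg, the glycogen primer (-1.43 ± 0.08), being the largest. Of 7 genes of pyruvate entry, 2 were lower, the pyruvate dehydrogenase phosphatase Pdp1 (-4.27 ± 0.12), which opposes the kinases, and the mitochondrial pyruvate carrier Mpc1 (-1.58 ± 0.11). Pyruvate carboxylase, Pcx, which in brain is known from astrocytes, was the 1 lower gene of 7 in the gluconeogenesis list (-3.30 ± 0.07).

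The higher genes were the serine hydroxymethyltransferases Shmt1 (2.23 ± 0.06) and Shmt2 (1.70 ± 0.16), 2 of 5 genes of the serine branch, Prps1, which activates ribose for nucleotides (1.30 ± 0.09, 1 of 8), and Arnt, the partner of hypoxia-inducible factor (1.01 ± 0.07). Among the regulators, Epas1, a hypoxia-inducible factor subunit (-2.18 ± 0.15), and Txnip, a glucose-sensing inhibitor of glucose uptake (-2.10 ± 0.21), were lower. Of 9 further glucose carriers 3 were lower, with Slc2a13 first (-1.55 ± 0.09), and Gpd1 of the glycerol phosphate shuttle was lower (-1.89 ± 0.20, 1 of 3).

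The hypoxia-inducible list holds genes outside glycolysis. Of its 13 genes, 6 were called lower in day 6 cells than in astrocytes, where 10.1% of all genes were, and 0 higher by limma (3 were higher at an unadjusted p under 0.05), with a median of -0.56, beside 0.042 over all genes. Those with the largest differences were Ndrg1 (-2.64 ± 0.23), the collagen hydroxylase P4ha1 (-2.51 ± 0.13) and the peptide hormone Adm (-2.39 ± 0.17). The list's mean per array was 9.05 to 9.19 in astrocytes, 8.16 to 8.37 in day 6 cells, 8.02 and 8.17 in astrocyte iPSCs and 8.71 and 8.62 in MEF iPSCs. Lower levels than in astrocytes were not particular to day 6 cells. Against the same astrocytes, 5 of the 13 were called lower in neural stem cells (median -0.79) and 6 in astrocyte iPSCs (median -0.92). In each of these, 0 were called higher by limma and 2 were higher at an unadjusted p under 0.05.

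**Figure D5:**
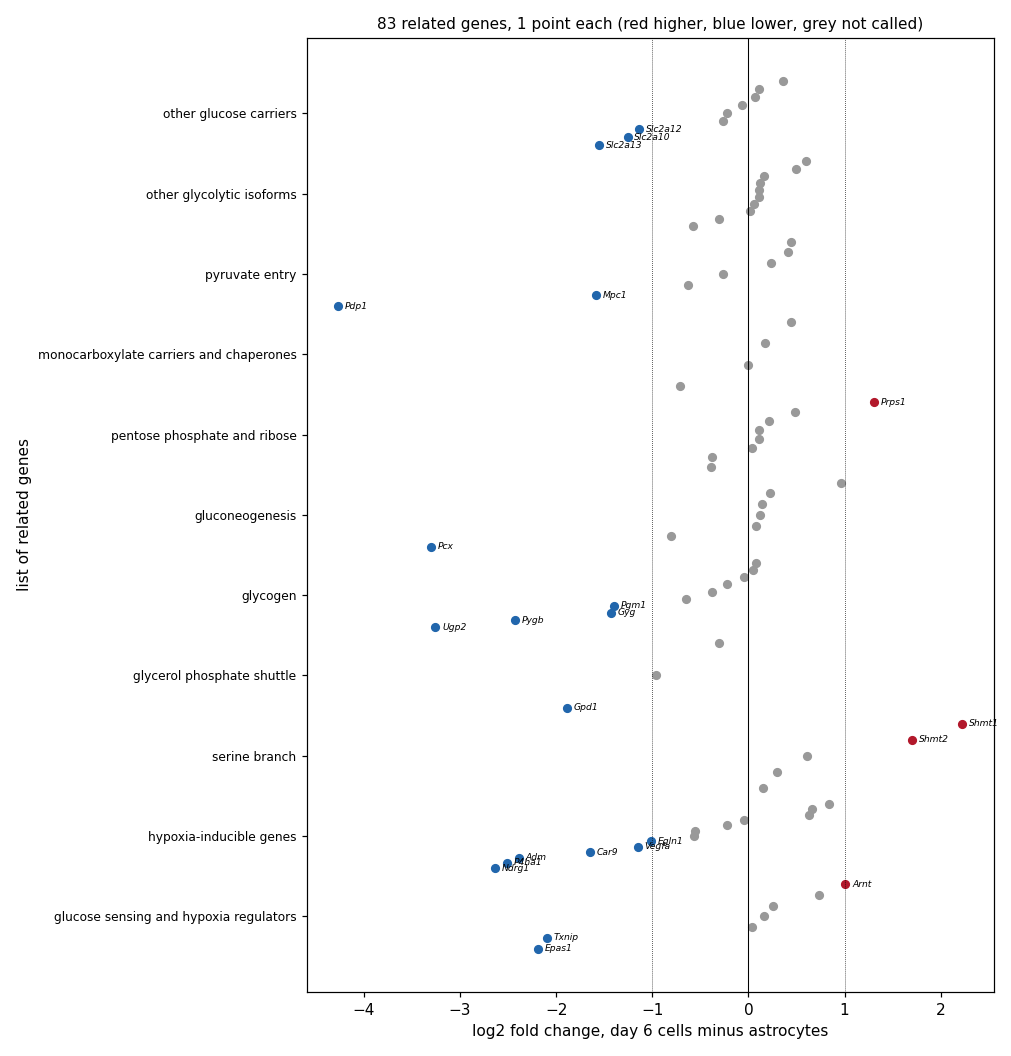
Related genes in day 6 cells minus astrocytes. Each point is 1 of the 83 measured genes in 11 lists, the horizontal axis is the log2 difference, dotted lines mark the fold limit of 1, and called genes are named and coloured (red higher, blue lower). The lower genes Pdp1, Pcx and Ugp2 lie beyond -3, and Shmt1 and Shmt2 are the highest.

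The related genes were also counted in the other comparisons. Against neural stem cells, day 6 cells had 4 higher, with Epas1 (1.61 ± 0.16), Ndrg1 (1.51 ± 0.26) and Pck2, the mitochondrial enzyme that makes phosphoenolpyruvate (1.33 ± 0.08), as the largest, and 6 lower (2.94% and 5.94% of all genes), with Gpd1 (-1.63 ± 0.22) and Adm (-1.36 ± 0.19) first. Astrocyte iPSCs, compared with day 6 cells, had 2 higher and 1 lower (3.29% and 2.82% of all genes). Emb, or embigin, a chaperone of monocarboxylate carriers, was higher by 4.14 ± 0.34 (limma adjusted p = 3.63e-06), at 11.06 ± 0.11 (SD, n = 2) against 6.92 ± 0.52 (SD, n = 3), and Tktl1, a transketolase-like gene, by 1.08 ± 0.18, while Mpc1 was lower (-1.06 ± 0.12). Neural stem cells had 2 higher and 16 lower than astrocytes (6.49% and 8.1% of all genes), and astrocyte iPSCs 5 and 19 (9.44% and 11.4%). In both, 4 of the 10 glycogen genes were lower and 2 of the 5 serine branch genes higher, the same counts as in day 6 cells. Between the iPSC groups, Egln3, an oxygen-sensing prolyl hydroxylase (-1.69 ± 0.13), and Txnip (-1.10 ± 0.25) were lower in astrocyte iPSCs, where 0.281% of all genes were. Of the 13 hypoxia-inducible genes, 8 were lower and 0 higher there at an unadjusted p under 0.05 by limma. Their median was -0.54, beside -0.002 over all genes.

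Over all 6 comparisons, 15 of the 33 genes were called in none and 3 in 4, namely Slc2a3, Aldoc and Pdk4. The range of a gene's 5 group means had a median of 1.10 over the 33 genes, beside 0.578 over all genes. All genes here include the many dim ones, so the 2 medians are not of equally bright genes.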

How the data were processed

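Total RNA (50 to 100 ng) was labelled with the GeneChip WT PLUS kit, per the labels' protocols. The deposited values are probe set intensities on a linear scale, background-corrected and normalized between arrays with RMA (robust multi-array average) per the submitters' processing notes, which state no version here. They ran from 20.19 to 15435.8, and log2 was taken; whether a constant had been added is unknown, so 16 was subtracted as an alternative. Of 28853 probe sets, 21789 carry 1 gene symbol, 1621 several and 5443 none; the single-gene probe set with the highest mean represented each of 19938 genes, with no filter on dim genes. Group means over 12 arrays came from 1 linear model (limma 3.58.1, R 4.3.3, 7 residual degrees of freedom), checked on simulated data. Alternatives used averaged probe sets per gene, dim genes left out, cyclic loess, median centring, the 2 groups alone, trend and robust settings, the replicate number as a blocking term, no fold limit and 1 array left out at a time; the second Hk1 probe set was added after seeing the data. The members and lists were chosen with earlier results of these data known. Every measured member is named, isoform families by array. Of the related lists, only some called genes are named, at most 3 of a list in a comparison. No related gene is named for neural stem cells or astrocyte iPSCs against astrocytes. Promoters are from RefSeq (GRCm38.p6). Figures used Python 3.11.15 and matplotlib 3.10.9. The number of arrays limits the precision.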

Additional observations from a re-analysis of the deposited data

How the results depend on the processing

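Of 40 calls of listed genes over the 6 comparisons, 35 were kept under each of 21 alternatives, 5 fell under the fold limit in at least 1 and 0 reversed. The 5 were Slc16a3 and Pgd (day 6 cells minus astrocytes), Bpgm, Pfkl (cyclic loess) and Aldoc between the iPSC groups. Without the fold limit the counts of listed genes were 25 for day 6 cells minus astrocytes (9755 of all genes), 20 for day 6 cells minus neural stem cells (7655), 19 for astrocyte iPSCs minus day 6 cells (5896), 15 for neural stem cells minus astrocytes (9144), 26 for astrocyte iPSCs minus astrocytes (10173) and 12 for astrocyte iPSCs minus MEF iPSCs (1150). Leaving out single arrays gave, in the same order, 8 to 11, 3 to 6, 3 to 4, 7, 15 to 16 and 0 to 1 listed genes, the 0 being without astrocyte iPSCs replicate 2, and 3327 to 3409, 1683 to 1897, 1190 to 1322, 2860 to 3002, 4018 to 4309 and 135 to 176 of all genes. Hk1 reversed with the RefSeq-annotated probe set, to -1.19 (day 6 cells minus astrocytes), -0.50 (day 6 cells minus neural stem cells), -0.68 (neural stem cells minus astrocytes) and -1.22 (astrocyte iPSCs minus astrocytes), and with the mean of its probe sets, to -0.49, -0.19, -0.30 and -0.54; the cause was not tested. Centring arrays on the median moved the median of all genes for day 6 cells minus astrocytes from 0.042 to 0.144, and all 40 calls were kept. Under cyclic loess, Hk1, Tpi1, Pgam1 and Pdhb changed sign for day 6 cells minus astrocytes, none of them called. With the replicate number as a block, all 40 calls were kept, 1348 of all genes were higher and 2016 lower for day 6 cells minus astrocytes, and Hk2 joined for day 6 cells minus neural stem cells (1.02), making 5. Deviations of same-numbered arrays correlated at -0.10 to 0.41 and of others at -0.41 to 0.32. The 3 same-numbered pairs of astrocytes and day 6 cells correlated at 0.41, -0.01 and 0.22. Replicate 1 of MEF iPSCs correlated at 0.40 with that of astrocytes and 0.41 with that of day 6 cells. Deviations within a group sum to 0, which ties the 2 ranges together, so they cannot decide whether same-numbered arrays share an effect. The main model did not use the numbers.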
